A study of Mus musculus with 6 samples.

Results

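The 8 T-box genes described here, Tbx1, Tbx2, Tbx3, Tbx4, Tbx5, Tbx15, Tbx18 and Tbx20, were selected by gene symbol among the 45777 genes of a read count table from mouse brown adipose tissue. They were chosen with the Rb2-against-PBS read counts of the same table already known, so their differences between the groups are a description and carry no independent test. All 8 had a row, 5 (Tbx2, Tbx3, Tbx5, Tbx15 and Tbx18) had enough counts to enter the table-wide fit, and 3 (Tbx1, Tbx4 and Tbx20) did not. The table held 9 more T-box genes, T, Tbr1, Eomes, Tbx6, Tbx10, Tbx19, Tbx21, Tbx22 and Mga, which are set beside them where they differ.

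T-box factors are transcription factors that share a DNA-binding region, the T-box, and act mostly in the embryo, where they fix the identity of limbs, heart chambers, muscle and fat. Tbx2 and Tbx3 act largely as repressors, while Tbx5 and Tbx1 are better known as activators. In adipose tissue Tbx15 marks and patterns depots and is needed for brown adipocyte differentiation, and Tbx1 is used as a marker of beige fat cells. Tbx15 is also expressed in skeletal muscle, where it acts in glycolytic fibres.

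The tissue came from male wild-type C57Bl6/J mice that received intraperitoneal injections of Rb2, a ginsenoside (a ginseng saponin), or of PBS, the saline vehicle, over 2 weeks, with 3 mice in each group. No allele, transgene or other agent is recorded for either group, and the sources used here give neither dose nor age. Poly(A) RNA was sequenced as 1 library per mouse. The question of the design was which genes of this tissue differ after Rb2. Libraries are named by the group and the number that their column carries: PBS 1, PBS 2 and PBS 4, and Rb2 1, Rb2 3 and Rb2 4.

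Total counts ran from 83642183 in PBS 1 to 92666780 in PBS 4. Levels are given as CPM, in which TMM factors bring each library to the same size. Where no read was counted, the limit is 3 counts, which corresponds to 0.0324 to 0.0359 CPM depending on the library and covers counting error only. The tissue label was borne out by the level of Ucp1 (the uncoupling protein of brown fat), at 3980 ± 711 CPM in PBS and 3670 ± 910 in Rb2 (SD, n = 3). All 12 brown adipocyte markers entered the fit, but so did all 18 skeletal muscle markers, so entry alone marks no tissue. Skeletal muscle transcripts set libraries apart within PBS. The summed level of 18 skeletal muscle markers was 2660 CPM in PBS 1, 7920 in PBS 2 and 68.2 in PBS 4, against 50.9 in Rb2 1, 535 in Rb2 3 and 347 in Rb2 4. Without both PBS 1 and PBS 2, a fit with 1 PBS library, none of the 27 calls named below from other gene lists passed. Estimates from that fit are given where they moved most. Of 16707 genes tested with the quasi-likelihood test of edgeR at a Benjamini-Hochberg adjusted p under 0.05, 1743 passed (10.4%), 890 higher (5.33%) and 853 lower (5.11%) after Rb2. With library size alone in place of TMM factors, the share of calls that were higher was 38.7% in place of 51.1%, and after the correction for GC content and length it was 61.6%.

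Among the 8 T-box genes, Tbx3 passed that threshold, lower after Rb2, and none passed as higher. The 1 call among the 5 tested genes stands beside 5.11% of all tested genes called lower, and nothing is read from it, since the choice of genes used this contrast. The fitted log2 fold change was negative for 4 of the 5 tested genes, with a median of -0.62 against -0.01 over all tested genes. The CPM of the groups did not overlap for 2 of the 5, Tbx3 and Tbx2, as for 35.8% of all tested genes. A change of at least 2-fold was fitted for 2 of the 5, Tbx3 and Tbx15. Tbx15 did not pass, and the share of all tested genes with such a change was not counted, so nothing is read from this. In a bulk tissue sample, fewer cells of a type and less RNA per cell cannot be told apart, and this holds for each of the values that follow.

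**Figure D1:**
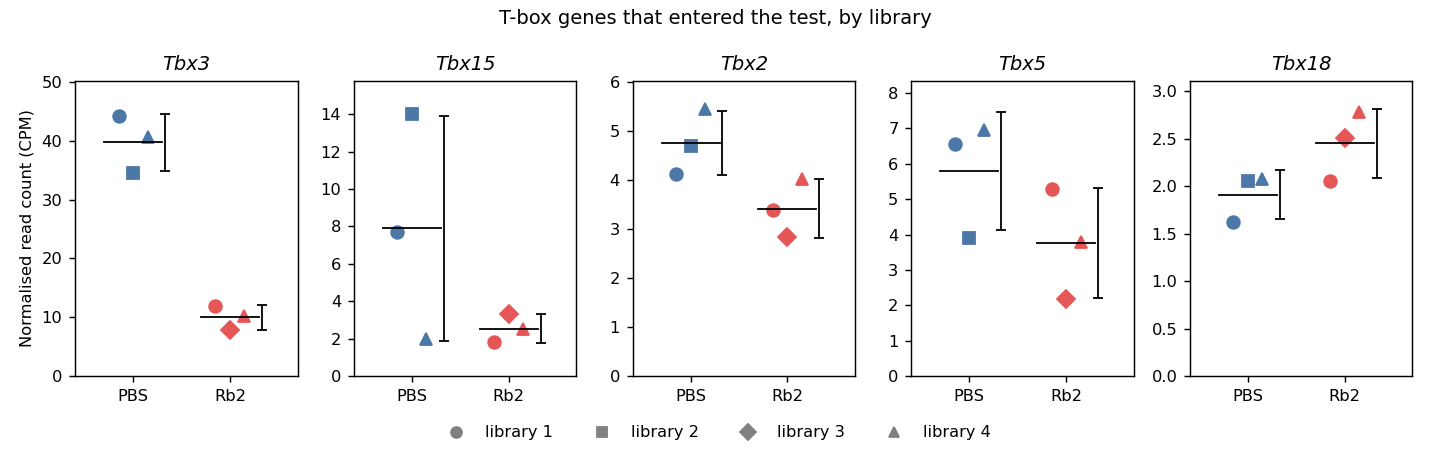
Level of T-box genes in each library, as TMM-normalised CPM, for the 5 genes that entered the fit, with 1 point per library, a line at the group mean and a bar of ± 1 SD (n = 3). The Tbx3 points of the groups lie far apart (39.8 against 9.99 CPM on average), whereas the PBS points of Tbx15 run from 1.99 to 14.0 CPM, and the lowest lies among its Rb2 points.

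Tbx3, a repressor of cell-cycle inhibitor genes and a factor of limb, heart and mammary development, lies on chromosome 5 (GRCm38.p6, 119670534 to 119684724). Its read counts were 3580 in PBS 1, 3345 in PBS 2 and 3970 in PBS 4, and 1009 in Rb2 1, 640 in Rb2 3 and 953 in Rb2 4. On the CPM scale these were 44.2, 34.6 and 40.6 in PBS and 11.9, 7.76 and 10.3 in Rb2. Every Rb2 library stood below every PBS library, and the gap between the groups was wider than the range within either. The mean fell from 39.8 ± 4.83 to 9.99 ± 2.10 CPM (SD, n = 3), which is 3.98-fold lower, with a log2 fold change of -1.99 ± 0.18 (SE) and an adjusted p of 0.00168 in edgeR. By fold change it was number 39 among the 853 genes called lower. Without both PBS 1 and PBS 2, which leaves a single PBS library whose spread is assumed to equal that of Rb2, the log2 fold change was -2.02 with an edgeR adjusted p of 0.0557.

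The level of Tbx3 did not follow muscle transcripts: PBS 4, with few of them, held 40.6 CPM, close to PBS 1 and PBS 2. Markers of other cell types did differ between the groups beside it. Counts of calls in these and the later lists stand beside 5.11% of all tested genes called lower and 5.33% called higher. The lists were chosen with earlier results of these data known, so nothing is read from the counts. Of 11 endothelial markers, 5 fell and none rose: Cldn5 (a tight junction protein) by 2.05 on the log2 scale, Eng (a TGF-beta co-receptor) by 1.18, Robo4 by 0.88, Sox17 by 0.82 and Cdh5 (VE-cadherin) by 0.80. The summed endothelial level ran from 1540 to 1750 CPM in PBS and from 853 to 1280 CPM in Rb2. Their part in the Tbx3 result was not tested. Cldn5 and Eng passed with each library left out in turn. Without PBS 2, Sox17 (adjusted p of 0.0552) and Robo4 (0.0574) did not, and Cdh5 failed without PBS 1, PBS 2, Rb2 1 or Rb2 3 (up to 0.0706).

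Mural cells, the pericytes and smooth muscle cells around vessels, and fibroblastic progenitors of fat are other cells of the depot. Of 13 mural markers 3 fell, Kcnj8 by 1.03, Mcam by 0.99 and Higd1b by 0.96 on the log2 scale, with summed levels of 1030 to 1190 CPM in PBS and 833 to 914 in Rb2. Of 12 fibroblast and progenitor markers 2 fell, Clec3b by 1.17 and Col15a1 by 0.72, with summed levels of 415 to 578 CPM in PBS and 299 to 407 in Rb2. No other marker of that list passed. Of its 12 estimates 11 were negative, with a median of -0.75, and Pdgfra went the other way, at 0.27. For both lists the summed levels of the groups did not overlap, and single genes showed no overlap for 35.8% of all tested genes. The fibroblast sums nearly met, at 415 CPM in the lowest PBS and 407 in the highest Rb2 library. The part of both lists in the levels of Tbx3, Tbx2 and Tbx18 was not tested. The calls from both lists were less steady than that of Tbx3. Without PBS 1, Kcnj8, Mcam, Higd1b and Col15a1 missed the threshold (adjusted p of 0.0571, 0.0658, 0.0625 and 0.0811). Without PBS 2, Mcam, Higd1b and Col15a1 did (0.0623, 0.0623 and 0.0777), and Clec3b reached only 0.05. Without both, Mcam was at -0.55 and Col15a1 at -0.45. Without Rb2 1, Kcnj8 (0.0632) and Col15a1 (0.0829) failed, and without Rb2 3, Mcam (0.0581), Clec3b (0.0506) and Col15a1 (0.0925) failed. Col15a1 also failed after the correction for GC content and length (-0.50, adjusted p = 0.104) and with the muscle marker level as a covariate (0.0582).

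Of 7 lymphatic endothelial markers, Flt4 (the receptor VEGFR3) fell, by 0.77 on the log2 scale with an edgeR adjusted p of 0.039. It passed in 1 of 6 fits with a library left out, the one without Rb2 4, and reached an adjusted p of 0.13 without Rb2 1. Of 8 macrophage markers 3 fell, C1qb by 0.79, C1qa by 0.69 and Csf1r by 0.48. The complement genes C1qb and C1qa failed without PBS 1, PBS 2, Rb2 1 or Rb2 3 (adjusted p up to 0.092 and 0.114), and Csf1r failed with any library left out (up to 0.13). After the correction for GC content and length none of the 3 passed, with C1qb at -0.42 (0.136), C1qa at -0.25 (0.336) and Csf1r at -0.32 (0.184), nor did Flt4 at -0.52 (0.105). Of the brown adipocyte markers, Prdm16 and Elovl3 fell, with a list median of -0.11. Elovl3, a fatty acid elongase, fell by 1.74 and missed the threshold without PBS 1 (0.0728), PBS 2 (0.0851) or Rb2 4 (0.0701).

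Tbx2, the closest relative of Tbx3 in sequence and likewise a repressor, lies on chromosome 11 (85832615 to 85841948). Its CPM was 4.13, 4.70 and 5.45 in PBS 1, PBS 2 and PBS 4, and 3.40, 2.84 and 4.03 in Rb2 1, Rb2 3 and Rb2 4. The highest Rb2 library lay just under the lowest PBS library, so the groups did not overlap but nearly met. The means were 4.76 ± 0.661 and 3.42 ± 0.598 CPM (SD, n = 3), with a log2 fold change of -0.48 ± 0.20 (SE) that did not pass (edgeR adjusted p = 0.149). After a correction for GC content and length the difference was -0.05 (adjusted p = 0.876). The longest Tbx2 transcript has a GC content of 63.2%. Without both PBS 1 and PBS 2 the difference was -0.67 (0.419).

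Tbx5, which sets up the forelimb and the heart and lies beside Tbx3 on chromosome 5 (119796514 to 119885220), was at 6.55, 3.90 and 6.95 CPM in PBS 1, PBS 2 and PBS 4. In Rb2 1, Rb2 3 and Rb2 4 it was at 5.30, 2.19 and 3.80 CPM. PBS 2 lay under Rb2 1, so the groups overlapped, and each group had 1 library well below its others. The means were 5.80 ± 1.66 and 3.77 ± 1.55 CPM (SD, n = 3), with a log2 fold change of -0.62 ± 0.34 (SE) and an edgeR adjusted p of 0.257. Of 10 cardiac muscle markers, Myl7, Nppa, Tnni3 and Mybpc3 were at 0 in every library and 3 had enough counts for the fit. Myl4, at 3.88 ± 0.452 CPM in PBS and 3.15 ± 0.779 in Rb2, had the second smallest p of the list after Myl2. Myl2, which slow skeletal fibres also express, was at 4.43, 21.9 and 0 CPM in PBS and 0, 0.533 and 0.432 in Rb2. Neither passed.

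Tbx18, a factor of pericytes, smooth muscle and the outer layer of the heart, lies on chromosome 9 (87702800 to 87731260). It was at 1.62, 2.05 and 2.07 CPM in PBS 1, PBS 2 and PBS 4, and at 2.05, 2.51 and 2.78 CPM in Rb2 1, Rb2 3 and Rb2 4. PBS 2 and PBS 4 reached the level of Rb2 1, so the groups overlapped. It was the single tested member with a positive estimate, 0.35 ± 0.23 (SE) on the log2 scale, from 1.91 ± 0.258 to 2.45 ± 0.366 CPM (SD, n = 3; edgeR adjusted p = 0.317). Its value stands opposite in sign to the median of the 13 mural markers, -0.67, but no test of that difference was made.

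Tbx15 lies on chromosome 3 (99240348 to 99354260). Its read counts were 625 in PBS 1, 1354 in PBS 2 and 195 in PBS 4, and 153 in Rb2 1, 274 in Rb2 3 and 231 in Rb2 4. As CPM these were 7.71, 14.0 and 1.99 in PBS and 1.81, 3.32 and 2.50 in Rb2. PBS 4 lay within the Rb2 range, while PBS 1 and PBS 2 lay above all Rb2 libraries. The means were 7.90 ± 6.01 and 2.54 ± 0.758 CPM (SD, n = 3), and the log2 fold change of -1.64 ± 0.74 (SE) did not pass (edgeR adjusted p = 0.214). The highest PBS library held 7.03 times the level of the lowest, a wider range than in all but 1.58% of the 12612 tested genes with a mean of at least 1 CPM (median ratio 1.24). For Tbx3 the same ratio was 1.28.

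The order of the libraries by Tbx15 was the order by summed skeletal muscle markers: Rb2 1 lowest, then PBS 4, Rb2 4, Rb2 3, PBS 1 and PBS 2. Of 12612 genes 92 (0.729%) had that order. These include 15 of the 18 muscle markers, whose own sum set the order. None of the 18 markers passed the test, although all had negative estimates with a median of -3.60. Acta1, skeletal alpha-actin, was at 375, 1610 and 1.24 CPM in PBS 1, PBS 2 and PBS 4, and at 0.118, 66.3 and 34.8 in Rb2 1, Rb2 3 and Rb2 4. The markers with the smallest p were Myl1, at 294 ± 271 CPM in PBS and 68.2 ± 16.1 in Rb2, and Myh2, at 26.0 ± 39.0 and 1.12 ± 1.05 (SD, n = 3).

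The Tbx15 difference moved with these libraries. With the mean muscle marker level as a covariate it was -0.67 ± 0.38 (SE; edgeR adjusted p = 0.320), and without both PBS 1 and PBS 2 it turned to 0.35 (0.741). Without PBS 2 alone it was -0.94. Without PBS 4, the PBS library with few muscle transcripts, it was -2.11 and passed (adjusted p of 0.0158).

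**Figure D2:**
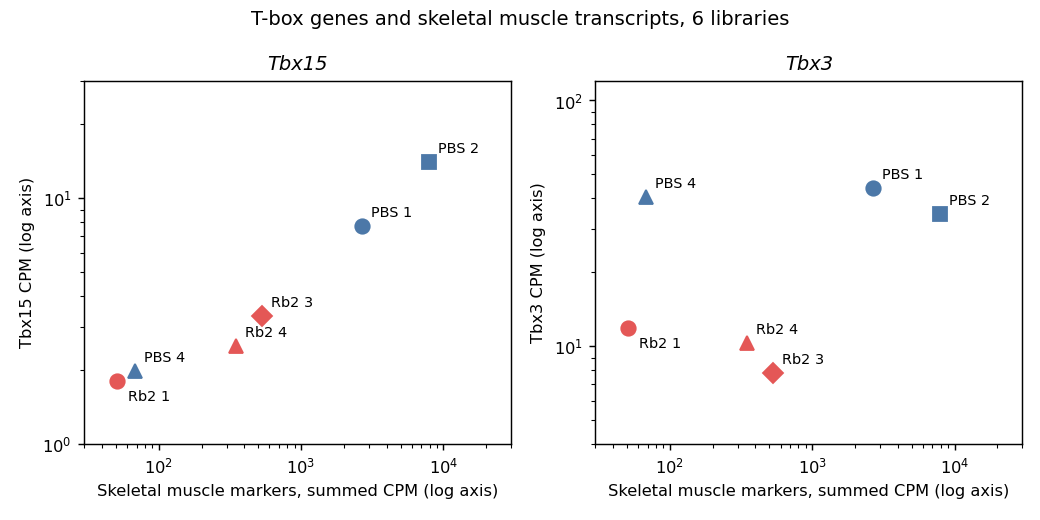
Level of Tbx15 and of Tbx3 (TMM-normalised CPM, log axis) against the summed CPM of 18 skeletal muscle markers (log axis), 1 point per library. Tbx15 is higher where the muscle markers are higher, with PBS 4 (68.2 CPM of markers) among the Rb2 libraries, while Tbx3 in PBS 4 stays beside PBS 1 and PBS 2.

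The remaining members were near or under the limit of detection. Tbx4, a hindlimb and lung factor on chromosome 11 (85886367 to 85916097), had 12, 21 and 0 counts in PBS 1, PBS 2 and PBS 4 and 0 in each Rb2 library. Its counts thus came only from the PBS libraries with the most muscle transcripts, and its CPM in PBS did not exceed 0.217. Any fit in which it passed the count filter let it in through those libraries, so no test of it is given. Tbx1, on chromosome 16 (18580979 to 18590671), had 0, 20 and 9 counts in PBS and 0, 0 and 14 in Rb2. It was at 0 in 3 of the 6 libraries, in both groups. Tbx20, a heart factor on chromosome 9 (24720812 to 24774303), had no count in any library, so its level lay below the limit of 3 counts in each.

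Levels of different T-box genes were compared per length, as CPM per kilobase of summed exon length (RPKM). In PBS the order was Tbx3 at 6.0 ± 0.729, Tbx15 at 2.11 ± 1.60, Tbx2 at 1.31 ± 0.182, Tbx5 at 1.24 ± 0.355 and Tbx18 at 0.405 ± 0.0546 RPKM (SD, n = 3). Tbx4 and Tbx1 followed at 0.0358 ± 0.0326 and 0.0283 ± 0.0295 RPKM. Tbx3 stood above Tbx15 in all PBS libraries, and Tbx5 above Tbx18. Tbx15, Tbx2 and Tbx5 overlapped with their neighbours in the order, as did Tbx4 and Tbx1. With coding length in place of exon length Tbx5 came before Tbx2 (3.73 against 2.23 RPKM in PBS), and likewise with the longest transcript (1.47 against 1.31).

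In Rb2 the order was Tbx3 at 1.51 ± 0.316, Tbx2 at 0.944 ± 0.165, Tbx5 at 0.806 ± 0.332, Tbx15 at 0.678 ± 0.202 and Tbx18 at 0.519 ± 0.0775 RPKM (SD, n = 3). Tbx3 remained above Tbx2 in every comparison of libraries, and each later pair of neighbours overlapped. Tbx3 made up 57.2%, 44.8% and 60.6% of the summed RPKM of the 8 genes in PBS 1, PBS 2 and PBS 4, and 37.6%, 30.5% and 32.5% in Rb2 1, Rb2 3 and Rb2 4. Tbx15 made up 17.7%, 32.1% and 5.26% in PBS and 10.1%, 23.1% and 14.0% in Rb2.

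**Figure D3:**
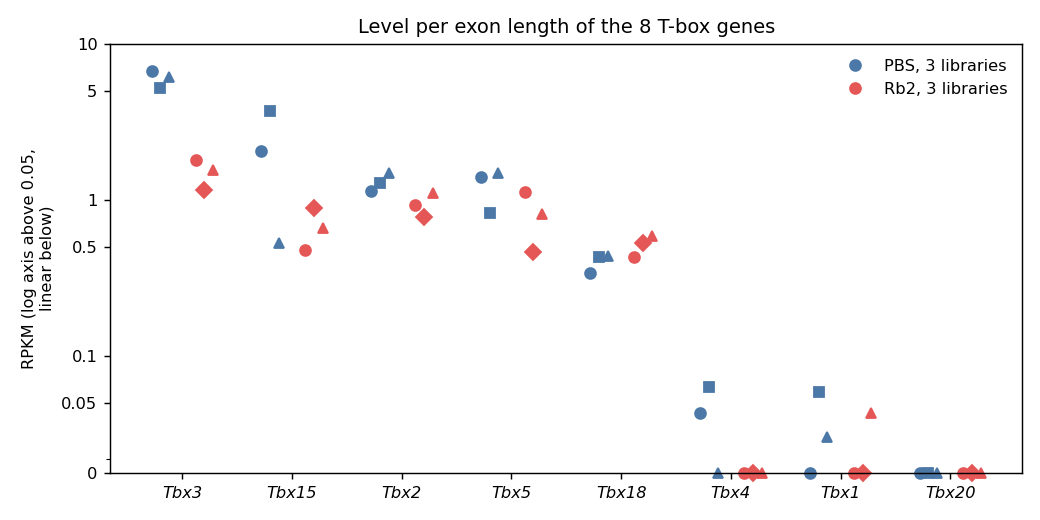
Level per exon length (RPKM, log axis above 0.05 and linear below) of the 8 T-box genes, 1 point per library, PBS beside Rb2. Tbx3 is the highest member in both groups, at 6.0 and 1.51 RPKM on average, and Tbx2, Tbx5, Tbx15 and Tbx18 lie close together in Rb2.

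The other T-box genes showed no call. T, Tbr1, Tbx10, Tbx19 and Tbx22 were at 0 in every library, and Eomes, a lymphocyte and early embryo factor, ran from 8 to 20 counts. Mga, which pairs with MAX and carries a T-box, was at 24.7, 23.6 and 22.9 CPM in PBS and 35.0, 28.0 and 30.3 in Rb2. The groups of Mga did not overlap, as for 35.8% of all tested genes. Its log2 fold change of 0.39 ± 0.13 (SE) missed the threshold in edgeR (adjusted p = 0.0765) and passed with the DESeq2 Wald test (0.041). At 1.55 ± 0.0608 RPKM in PBS it stood below Tbx3 and near Tbx2 per exon length. In Rb2 it averaged 2.03 ± 0.232 RPKM, above Tbx3 at 1.51 ± 0.316, with no overlap of their libraries (SD, n = 3). With coding length in place of exon length Mga stayed below Tbx3 in Rb2 (3.41 against 4.49 RPKM). Tbx6, a factor of early mesoderm, was at 0.449 ± 0.0684 and 0.588 ± 0.241 CPM (SD, n = 3; adjusted p = 0.534). Tbx21, the T-bet of T and NK cells, was at 0.483 ± 0.0761 and 0.503 ± 0.164 CPM (0.932).

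None of 10 T and NK lymphocyte markers passed. Il2rb, at 1.68 ± 0.710 CPM in PBS and 0.890 ± 0.0676 in Rb2, had the smallest adjusted p (0.114), followed by the NK receptor gene Ncr1 at 0.204 ± 0.112 and 0.0638 ± 0.0421 CPM (0.143). The estimate of Il2rb rested on which PBS libraries entered: -1.23 without PBS 4 (adjusted p of 0.0325) and -0.03 without both PBS 1 and PBS 2 (0.982). None of 7 Schwann cell markers passed either, with S100b at 42.5 ± 17.0 CPM in PBS and 61.8 ± 2.64 in Rb2. The list had a median of -0.38, opposite in sign to S100b, whose estimate was 0.90 without PBS 4 (0.0149) and -0.01 without both PBS 1 and PBS 2 (0.991). Of 6 mesothelial markers Msln and Wt1 were at 0 throughout and Lrrn4 alone entered the fit. Lrrn4 averaged 1.71 ± 0.368 CPM in PBS and 3.59 ± 0.749 in Rb2, a rise of 1.07 ± 0.25 (SE) on the log2 scale with an edgeR adjusted p of 0.0287. It failed without PBS 1, PBS 2, PBS 4 or Rb2 1 (up to 0.113), and with the muscle marker level as a covariate (0.0644).

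Repressors of the Tbx2 and Tbx3 kind work with corepressors such as Groucho/TLE proteins and histone deacetylases, and heart T-box factors with GATA and NKX2-5. Of 21 such genes listed, 20 were in the table and 15 were tested, of which 1 fell and none rose, with a median log2 fold change of -0.32. Over all tested genes 5.11% were called lower, so nothing is read from this count. Nkx2-5 and Hand2 were at 0 in every library. The call was Tle2, a Groucho corepressor, at 1.96, 2.34 and 2.53 CPM in PBS and 1.25, 1.14 and 1.16 in Rb2. It fell by 0.95 ± 0.23 (SE) on the log2 scale (edgeR adjusted p = 0.0311), and failed without PBS 1, PBS 2, PBS 4, Rb2 1 or Rb2 3 (up to 0.112), and after the correction for GC content and length (-0.63, adjusted p = 0.0957). Its levels in the groups did not overlap, as for 35.8% of all tested genes.

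Genes reported elsewhere as T-box targets were also counted. Of 20, 14 were tested, 2 fell and none rose, with a median of -0.52, and Nppa, Gjd3, Fgf8 and Tcf21 were at 0. The count of falls stands beside 5.11% of all tested genes called lower. Cdkn1a, the cell-cycle inhibitor p21 and a gene that Tbx2 and Tbx3 are known to repress, was at 157, 227 and 146 CPM in PBS and 61.5, 40.5 and 22.8 in Rb2. It fell by 2.09 ± 0.38 (SE) on the log2 scale (edgeR adjusted p = 0.0256), in the same direction as Tbx3. Its groups did not overlap, as for 35.8% of all tested genes. Without PBS 1 (adjusted p of 0.0754), PBS 2 (0.078) or Rb2 3 (0.0887) it missed the threshold, as it did with the muscle marker covariate (0.0628) and the correction for GC content and length (0.0604). Flt4, already named among the lymphatic markers, was the other call, from 18.8 ± 2.77 to 11 ± 2.88 CPM (SD, n = 3). It failed without PBS 1, PBS 2, PBS 4, Rb2 1 or Rb2 3.

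Of 25 markers of adipose depots and lineages 22 were tested, 5 rose and 2 fell, with a median of 0.02. Over all tested genes 5.33% were called higher and 5.11% lower. Prdm16, a coregulator of brown fat identity, fell by 1.13 ± 0.15 (SE) on the log2 scale, from 26.9 ± 3.21 to 12.3 ± 1.88 CPM (edgeR adjusted p = 0.00584), and passed with each library left out. Tnfrsf9, a beige marker like Tbx1, fell from 0.668 ± 0.120 to 0.243 ± 0.0334 CPM. The 5 that rose were the depot homeobox genes Hoxa5, from 10.2 ± 3.05 to 21.9 ± 3.77 CPM, and Lhx8, from 0.976 ± 0.362 to 2.70 ± 0.942, with Fbxo31, Ebf2 and Zic1. Fbxo31 went from 29.5 ± 8.10 to 71.1 ± 25.3 CPM and Ebf2, a factor of brown fat precursors, from 20.3 ± 2.62 to 36.3 ± 11.4. Zic1, a brown fat marker that lay outside the rule for named genes and was added after its value was seen, went from 2.28 ± 0.570 to 4.94 ± 1.79 CPM.

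These depot calls, other than Prdm16, mostly missed the threshold with a library left out, while their estimates kept their sign. These ran from 0.96 to 1.36 for Hoxa5, -1.56 to -1.3 for Tnfrsf9 and 1.15 to 1.73 for Lhx8. For Fbxo31, Ebf2 and Zic1 they ran from 0.94 to 1.49, 0.56 to 1.0 and 0.78 to 1.29. Calls over the whole table, 1743 in the full fit, were 334 without PBS 1, 303 without PBS 2 and 548 without Rb2 1. Without Rb2 4 they were 2269. Without PBS 1 or without PBS 2, none of the other 6 passed, and the highest adjusted p with a library left out was 0.0802 for Hoxa5, 0.147 for Tnfrsf9, 0.119 for Lhx8, 0.101 for Fbxo31, 0.143 for Ebf2 and 0.145 for Zic1. Without PBS 4 Hoxa5 alone of these 6 passed, and without Rb2 1 none did. Without Rb2 3 Ebf2 alone passed. With the muscle marker level as a covariate Hoxa5 alone of these 6 passed, and without both PBS 1 and PBS 2 its estimate was 0.68 against 1.10. Hoxc10 was at 0 throughout. Hoxc8, another gene that differs between depots, was at 10.9, 7.74 and 1.89 CPM in PBS 1, PBS 2 and PBS 4 and at 1.50, 6.33 and 2.45 in Rb2 1, Rb2 3 and Rb2 4, and was not called (adjusted p = 0.492). It was high in PBS 1, PBS 2 and Rb2 3, with PBS 1 above PBS 2, which is not the order of Tbx15. It was picked out after its values were seen.

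Of 23 genes of signals that act on T-box genes in development, 21 were tested, 2 rose and none fell, with a median of -0.23. Over all tested genes 5.33% were called higher, so nothing is read from this count. Wnt5a, a ligand of non-canonical Wnt signalling, was at 4.93 ± 0.690 CPM in PBS and rose to 9.70 ± 1.41 in Rb2, by 0.98 ± 0.17 (SE) on the log2 scale (edgeR adjusted p = 0.0124). Ptch1, the Hedgehog receptor, rose by 0.62 ± 0.15 (SE), from 9.37 ± 1.10 to 14.4 ± 2.12 CPM (edgeR adjusted p = 0.036). Shh, a Hedgehog ligand, was at 0 in every library. Without PBS 1 or PBS 2 Wnt5a missed the threshold (0.0567 and 0.0555), and Ptch1 missed it with any library left out, with an adjusted p of up to 0.107, with library size alone (0.0792) and with the muscle marker covariate (0.0742).

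Across the 6 libraries the T-box genes did not share a single pattern. As a description over 6 libraries that share their group split, Pearson r of log2 CPM was 0.82 for Tbx2 and Tbx3, 0.74 for Tbx3 and Tbx5, 0.50 for Tbx3 and Tbx15 and -0.78 for Tbx3 and Tbx18. Tbx5 and Tbx15 had an r of -0.09. Of the 12611 other genes with a mean of at least 1 CPM, those most like Tbx3 were Tbc1d10a (0.9964), Rhog (0.9925), Magi1 (0.9917), Samd14 (0.9917) and Epb41l4a (0.9913). The most opposed were Mterf3 (-0.9984), Zfp101 (-0.9976) and Zfp273 (-0.9966). Each of these 8 differed between the groups without overlap, as did 35.8% of all tested genes. This follows from their choice by likeness to Tbx3 and is no further result. With single libraries left out, Samd14 passed in 0 of 6 fits and Rhog in 1, while Tbc1d10a, Magi1 and Epb41l4a passed in all 6.

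Those most like Tbx15 were Serinc2 (0.9990), Synpo2l (0.9982), Kcnma1 (0.9969), Myom1 (0.9966) and Scn4b (0.9962), and the most opposed were Gm4285 (-0.9846), Mppe1 (-0.9809) and Il17re (-0.9801). Synpo2l and Myom1 are sarcomere-associated genes of striated muscle. Myom1, for example, was at 21.2, 58.9 and 2.56 CPM in PBS 1, PBS 2 and PBS 4 and at 2.47, 6.46 and 4.86 in Rb2 1, Rb2 3 and Rb2 4. Like Tbx15 it was high in PBS 1 and PBS 2, and PBS 4 lay at the level of Rb2.

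**Figure D4:**
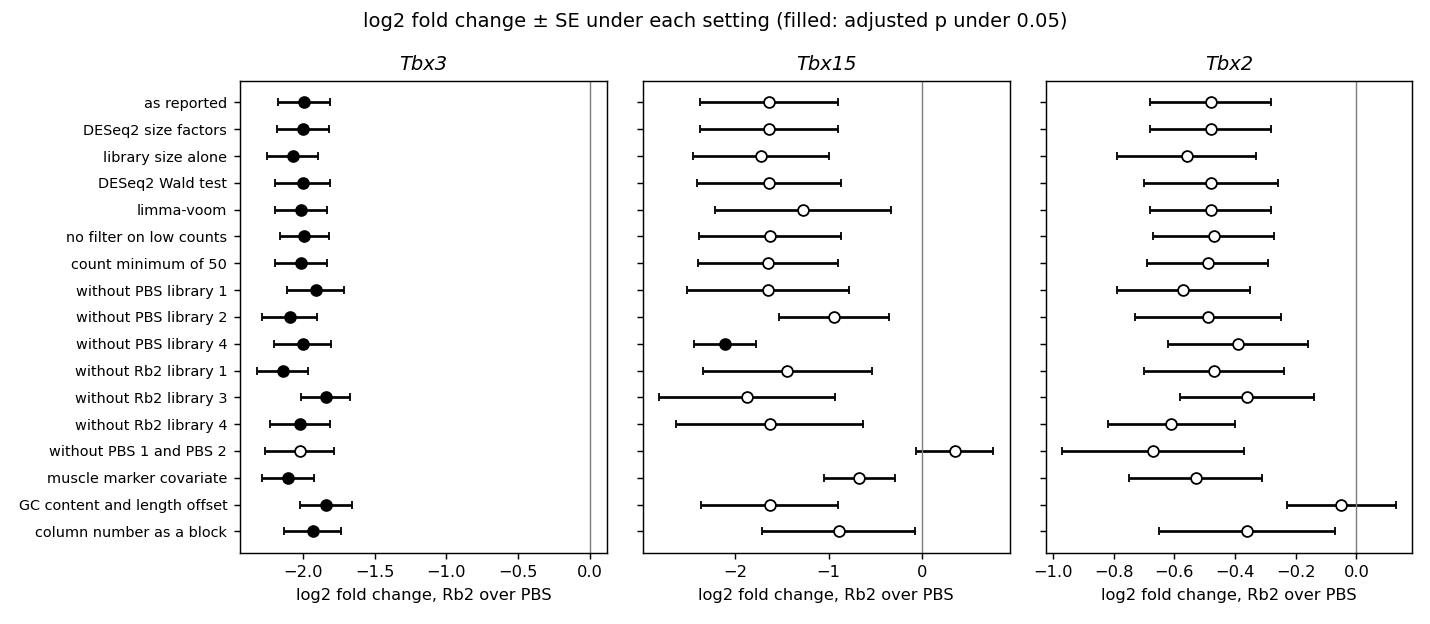
Log2 fold change (Rb2 minus PBS) of Tbx3, Tbx15 and Tbx2 under each analysis setting, with bars of ± 1 SE and filled points where the adjusted p was under 0.05. Tbx3 stays between -2.14 and -1.84, and Tbx15 spreads from -2.11 to 0.35.

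T-box genes lie partly in pairs. Tbx3 and Tbx5 are 111.8 kb apart on chromosome 5 and Tbx2 and Tbx4 44.4 kb apart on chromosome 11. Within each pair the genes differed in level, with Tbx3 at 6.0 and Tbx5 at 1.24 RPKM in PBS, and Tbx2 detected in every library while Tbx4 was found in 2. Of the RefSeq genes of the table within 100 kb of a member, Septin5, beside Tbx1, was called, lower by a log2 fold change of -0.85 ± 0.22 (SE, adjusted p = 0.0389). It failed without PBS 1, PBS 2, Rb2 1, Rb2 3 or Rb2 4 (up to 0.118), and after the correction for GC content and length (-0.49, adjusted p = 0.227). Septin5 was the 1 call among the 4 tested neighbours of Tbx1, and none was called beside any other member. Of all tested genes 10.4% were called, so nothing is read from this call. Of the 6 neighbours of Tbx3, 2 were tested.

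Overlapping transcripts bear on how reads are assigned, and the sources used here do not say whether the counting used strand. Tbx3os1, an antisense gene that shares 975 bases with Tbx3, had 9, 11 and 6 counts in PBS and 4, 14 and 14 in Rb2, against 640 to 3970 for Tbx3. Gm5563 overlaps Tbx5 by 26660 bases and had 7, 14 and 5 counts in PBS and 13, 8 and 0 in Rb2. Gm46817 and Gm52611, which overlap Tbx15, and Gm35369, which overlaps Tbx1, were at 0 in every library.

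Promoter windows of 300 bases (250 before and 50 after the start, RefSeq, GRCm38.p6) were matched for 4 of the 8 genes, Tbx1, Tbx4, Tbx18 and Tbx20. The pair on chromosome 9 is shown because Tbx18 was detected in every library and Tbx20 in none. Both lie on the minus strand, Tbx18 at chr9:87731211-87731510 and Tbx20 at chr9:24774254-24774553, and capitals mark the CG dinucleotides.
Tbx18: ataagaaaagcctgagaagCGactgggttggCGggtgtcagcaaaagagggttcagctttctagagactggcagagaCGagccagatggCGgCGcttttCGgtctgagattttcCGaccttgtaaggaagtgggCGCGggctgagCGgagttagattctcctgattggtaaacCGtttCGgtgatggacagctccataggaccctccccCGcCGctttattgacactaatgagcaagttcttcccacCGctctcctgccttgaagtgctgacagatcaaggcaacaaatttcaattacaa
Tbx20: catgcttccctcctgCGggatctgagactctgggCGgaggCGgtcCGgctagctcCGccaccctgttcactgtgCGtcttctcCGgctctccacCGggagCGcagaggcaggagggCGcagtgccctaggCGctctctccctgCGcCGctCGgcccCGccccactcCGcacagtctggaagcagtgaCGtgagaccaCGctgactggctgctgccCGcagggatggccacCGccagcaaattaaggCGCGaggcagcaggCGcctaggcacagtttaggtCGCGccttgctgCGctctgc
The detected gene held 15 CG dinucleotides, more than 65.4% of 32851 promoter windows, and the undetected one 26, more than 83.1% (median 7). Density of CG thus did not order this pair by level. The T-box recognition sequence AGGTGTGA (reverse strand TCACACCT) is in 1.28% of all windows, its shorter form GGTGTGA, which the longer one contains, in 3.98%, the core GGTGTG, which both contain, in 19.0% and the E-box CACGTG in 7.15%. None of these was in the 5 windows of the 4 genes on either strand, which says only that the letters are not in these windows.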

How the data were processed

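Messenger RNA was sequenced from brown adipose tissue of 3 PBS and 3 Rb2 mice. The authors deposited raw read counts in whole numbers for each gene. Trimmomatic, HISAT2, Bowtie2, StringTie and the mm10 genome are named per the submitters' processing notes; what each did, and which program counted reads and whether by strand, is not given in the sources used here. Library columns were assigned to groups by name. No libraries were duplicates (Pearson r across genes 0.920 to 0.979).

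Counts were tested with edgeR 4.0.16 (R 4.3.3; TMM, robust quasi-likelihood F test, count minimum 10, total 15) over 16707 genes, with Benjamini-Hochberg adjustment over all of them and a threshold of 0.05. The SE was taken as the size of the log2 change over the root of F. CPM is TMM-normalised, and RPKM divides it by GENCODE M21 exon length. Coordinates and promoters come from RefSeq GRCm38.p6. The members and the other gene and marker lists, 17 lists in all, were chosen with earlier results of these data known. Named were all T-box genes and, of each list, up to 6 calls by smallest p or otherwise the 2 smallest p, and for Tbx3 and Tbx15 the 5 most alike and 3 most opposed genes by Pearson r of log2 CPM (prior count 2). For the Schwann cell list 1 gene is named, and the other is not reported here. Alternatives were other size factors, DESeq2 1.42.0, limma-voom (limma 3.58.1), other filters and thresholds, each library or both PBS 1 and PBS 2 left out, a muscle marker covariate, a GC content and length offset (spline with 5 degrees of freedom; 94.4% of tested genes) and a replicate block. The scripts were tested on simulated data.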

Additional observations from a re-analysis of the deposited data

How the results depend on the processing

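Over 16 alternatives Tbx3 stayed lower after Rb2, with log2 fold changes from -2.14 to -1.84, and passed in 15. The exception left out both PBS 1 and PBS 2 (-2.02, adjusted p = 0.0557), a fit with 1 PBS library, in which 0 genes of the whole table and 0 members passed with edgeR and 2014 genes had an unadjusted p under 0.05. In that fit the estimates of Tbx15 (0.35), S100b (-0.01), Myl2 (7.85), Myl1 (0.19), Myh2 (4.42), Serinc2 (0.74), Synpo2l (0.81), Kcnma1 (0.60), Myom1 (0.85) and Scn4b (1.36) turned sign. With the muscle marker covariate Myl2 (0.19) and Myh2 (0.21) did, though Myh2 is itself among the markers that make up the covariate. Tbx21 turned sign with library size alone (-0.02), without PBS 2 (-0.06), without Rb2 3 (-0.22; from -0.22 to 0.26 with single libraries left out) and under the replicate block (-0.34). The 1 call among the members held elsewhere, except without PBS 4, where Tbx15 passed too (with single libraries left out the count ran from 1 to 3, the highest of which includes Tbx4, let into that fit by its counts in PBS 1 and PBS 2 alone and so no support).

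The count over the whole table, 1743, was 3295 with the DESeq2 Wald test, 1002 with the muscle marker covariate, 3392 at an adjusted p under 0.1, and from 303 (without PBS 2) to 2269 (without Rb2 4) with single libraries left out. The numbers of the titles could not be tied to columns, and the columns share only the numbers 1 and 4. Deviations from the group means correlated at -0.197 and -0.215 for these. Over all pairs of a PBS and an Rb2 library they ran from -0.472 to 0.506. Such values cannot decide whether a shared number marks a pairing, and no label states one. In the replicate block on the numbers, PBS 2 and Rb2 3 each stand alone and add nothing to the contrast. It gave 96 calls and Tbx3 at -1.93 (edgeR adjusted p = 0.0210). Of 27 calls named from the lists, 3 (Cldn5, Eng and Prdm16) passed with every single library left out. With the muscle marker covariate 15 passed and with the GC content and length offset 19. Depth limits Tbx1, Tbx4 and Tbx20, at or near 0 counts.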
